A study of Mus musculus with 2 samples.

Results

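Thbs4 Bmp5 lobular-like fibroblasts are stromal cells of the mouse mammary gland, named here as the study named a cluster of its atlas. The study chose that name for expression features in common with lobular fibroblasts of the human breast, and cell position was not measured here. They were chosen cell by cell on raw unique molecular identifier (UMI) counts, where 1 UMI stands for 1 captured transcript. A cell had to hold at least 1 UMI of Pdgfra, the receptor that marks fibroblasts, and at least 1 UMI each of 3 or more of Thbs4, Bmp5, Myoc, Col8a1, Grm8, Angptl1 and Gfra1. Cells in which 2 or more of Hc, Pla2g7, Gramd1b and Map2 were detected were left out, as were cells with 2 or more Ccn5 UMIs together with any of Pgr, Greb1 or Prg4. This gave 2637 cells of 44506 that passed quality control, 589 at puberty and 2048 in the adult.

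Both libraries came from wild-type female C57BL/6 mice, 4 weeks old at puberty and 9 weeks old as virgin adults. The labels give 2 females per condition, and whether each library pooled them or held 1 could not be settled. The cells had been sorted as negative for lineage markers and CD24, a gate meant to remove blood, endothelial and epithelial cells. Each stage had 1 library, so no difference between stages could be set against the spread between animals. No test was therefore run. The 95% intervals below cover counting error only, and a gene is called higher or lower where the ratio reached 2-fold. Because measured genes chose the cells, their contrast with other fibroblasts is a description.

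Lobules are the clustered glandular ends of the mammary tree, and the fibroblasts around glandular epithelium lay down matrix and secrete growth factors that the epithelium reads. Bone morphogenetic proteins (BMPs), to which Bmp5 belongs, are secreted ligands of the TGF-beta superfamily, and thrombospondins such as Thbs4 are matrix glycoproteins that bind collagens and cell-surface receptors. Gfra1 is the membrane-anchored co-receptor through which glial cell line-derived neurotrophic factor (GDNF) engages the receptor tyrosine kinase Ret.

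The libraries held 255274670 UMIs in 21688 barcodes at puberty and 259549498 UMIs in 23183 barcodes in the adult. The number of barcode sequences present in both was 145, and 0 of these belonged to lobular-like cells in both. The chosen cells had a median of 11385 UMIs at puberty and 11211 in the adult, against 12211 and 11270 in the other Pdgfra+ cells. At least 3 of the fibroblast markers Dcn, Lum, Pdgfra, Col1a1 and Col1a2 were detected in 589 of 589 pubertal and 2045 of 2048 adult cells. Epithelial markers (Epcam, Krt8, Krt18, Krt14, Krt5) held 0 UMIs at puberty and summed to 0.206 UMIs per 1000000 UMIs of the group (CPM) in the adult. The endothelial markers summed to 55.9 and 27.2 CPM, the immune markers to 1.54 and 1.32 CPM, and the Schwann cell markers to 18.5 and 15.3 CPM. The skeletal muscle markers summed to 5.59 and 3.13 CPM and the keratinocyte pair to 21.8 and 14.9 CPM. The tendon cell markers summed to 19.4 and 13.99 CPM. Mural markers summed to 155 and 57.1 CPM, and 8 pubertal and 11 adult cells held 3 or more of them.

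Lobular-like cells made up 3.12% of Pdgfra+ cells at puberty (589 of 18878, exact Clopper-Pearson interval 2.88 to 3.38) and 9.75% in the adult (2048 of 20999, 9.36 to 10.2). The adult share was 3.13 times the pubertal one (2.85 to 3.43, conditional binomial interval). After every cell had been thinned to 3000 UMIs the ratio was 3.45 (3.03 to 3.93), from 290 of 12247 and 1338 of 16400 cells. Of the 7 genes used, Thbs4, Bmp5, Myoc, Grm8 and Gfra1 had a higher level within the chosen adult cells and Col8a1 and Angptl1 a lower one. More cells of this kind and more of these transcripts per cell cannot be told apart from a share chosen this way.

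The shift lay in the cells with many markers. Pdgfra+ cells with exactly 2 of the 7 genes, just outside the threshold, numbered 1400 at puberty and 1256 in the adult. Those with exactly 3, just inside it before the exclusions, numbered 230 and 538. All 7 genes were detected in 35 pubertal and 295 adult cells. Among the lobular-like cells, 42.4% at puberty and 59.0% in the adult held 5 or more.

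Cilp and Hmcn2 were not used to choose the cells, and both were higher in them. Both had been picked as markers with earlier results of these data known, and the study names Cilp for its lobular-like cluster. Their levels are therefore no independent evidence. Cilp encodes a matrix protein of cartilage that binds TGF-beta, and Hmcn2 encodes hemicentin 2, a large extracellular protein of cell and basement membrane junctions. Cilp measured 1329 CPM in the pubertal and 1559 CPM in the adult lobular-like cells, against 40.3 and 88.2 CPM in the other Pdgfra+ cells, ratios of 33.0 (32.1 to 34.0) and 17.7 (17.4 to 18.0). Hmcn2 stood at 479 and 902 CPM against 10.3 and 43.1 CPM, ratios of 46.4 and 20.9. The other Pdgfra+ cells include those with 3 or more of the 7 genes that the exclusions removed. Hc, Pla2g7, Gramd1b and Map2 removed 7 pubertal and 121 adult cells, and Ccn5 removed 34 and 135. These cells count in the compared levels, with more of them in the adult. The share of cells with a Cilp UMI climbed with the number of markers, from 30.1% and 36.2% at 2 markers to 57.4% and 63.8% at 3, and to 100% and 99.3% at 7. For Hmcn2 it went from 13.4% and 32.2% at 2 markers to 41.7% and 60.6% at 3. The values change by degrees across the threshold, so the cells just inside it included many without either gene.

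**Figure D1:**
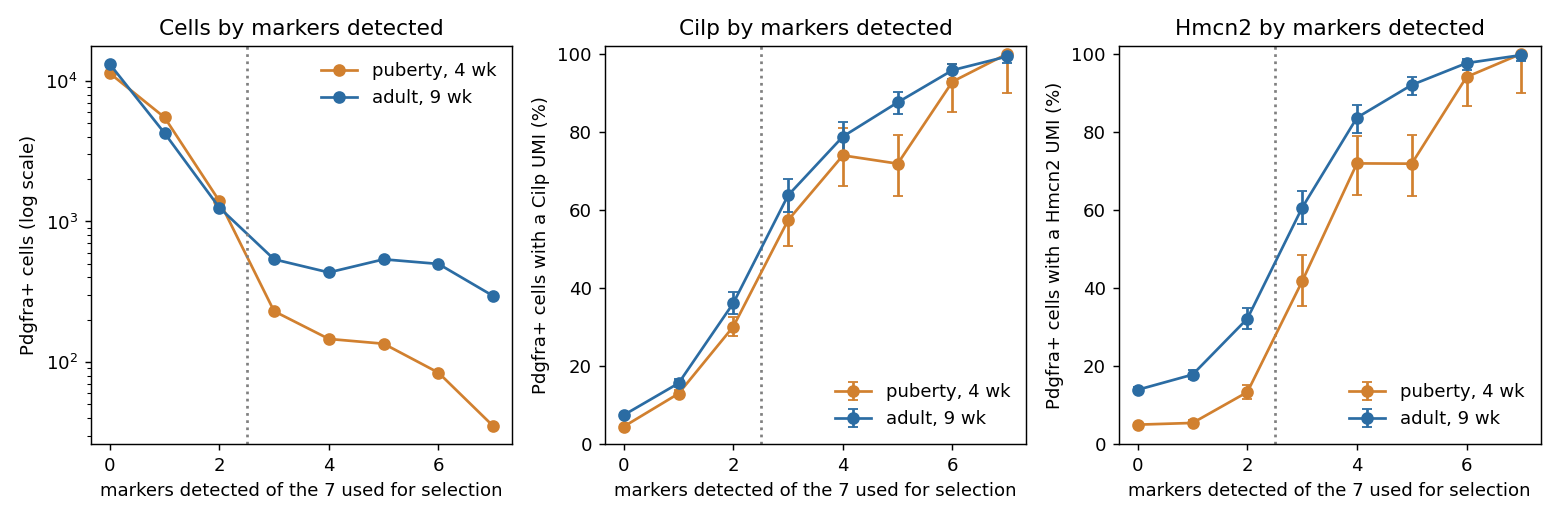
Pdgfra+ cells by how many of the 7 selection genes had a UMI (x axis), as a number of cells on a log axis (left) and as the percentage with a Cilp UMI (middle) or an Hmcn2 UMI (right), 1 line per library with exact 95% binomial intervals. From 3 markers up the adult library holds more cells, and the Cilp share climbs from 4.52% and 7.48% without any marker to 100% and 99.3% with all 7. The dotted line is the selection threshold.

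Each of the 7 genes was then read in cells chosen by at least 3 of the other 6. Thbs4 was detected in 59.7% of such pubertal cells (55.4 to 63.9) and 66.9% of adult ones (64.8 to 69.0), against 1.11% and 4.69% of the other Pdgfra+ cells. Bmp5 was detected in 39.3% and 58.0%, against 2.00% and 4.26%. Myoc, which encodes the secreted glycoprotein myocilin, was found in 70.3% and 90.5% against 11.3% and 12.1%. Col8a1, a short-chain collagen, was found in 58.1% and 52.8% against 1.47% and 2.11%. Grm8, a metabotropic glutamate receptor, was found in 31.8% and 52.8% against 0.541% and 2.06%. Angptl1, a secreted angiopoietin-like protein, was also common elsewhere, with 86.3% and 88.6% against 29.4% and 20.2%. Gfra1 was found in 52.1% and 60.3% against 3.34% and 2.85%.

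**Figure D2:**
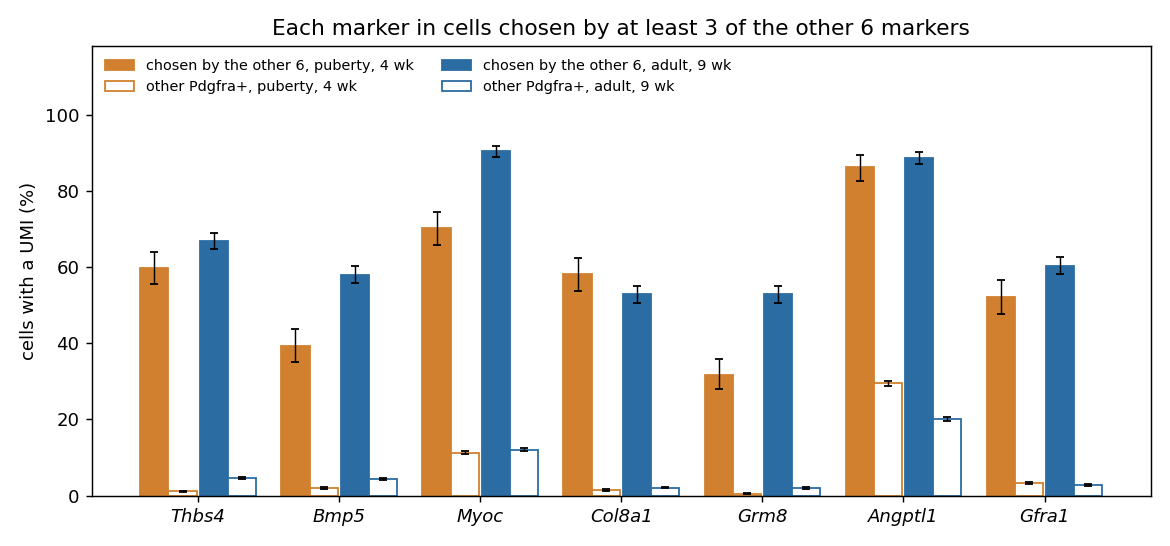
Percentage of cells with a UMI of each selection gene (x axis) in cells chosen by at least 3 of the other 6 genes (filled) and in the remaining Pdgfra+ cells (open), by library, with exact 95% binomial intervals. The filled bars run from 31.8% for pubertal Grm8 to 90.5% for adult Myoc, and among the open bars Angptl1 and Myoc alone pass 10%.

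Mural-like cells, which carry no Pdgfra UMI and hold at least 3 mural markers, gave the level that free RNA can reach. Their median depth was 6369 and 6355 UMIs. Thbs4 was detected in 1.001% and 1.84% of them, Cilp in 0.286% and 1.05%, and Hmcn2 in 2.43% and 2.63%. For Grm8 the adult value was 0 of 380 cells, which allows a share of up to 0.789% (3 counts of the total), a limit on cells with a UMI and not on cells expressing the gene. Bmp5 was the exception, with a UMI in 22.2% and 33.4% of mural-like cells at 50.3 and 83.1 CPM. Thinning to 3000 UMIs left out 10 pubertal and 15 adult lobular-like cells, 326 and 411 other Pdgfra+ cells, and 25 and 55 mural-like cells. Thbs4 was then detected in 54.8% and 57.8% of lobular-like cells, against 63.5% and 68.4% before thinning, and Cilp in 62.9% and 75.3%, against 70.5% and 83.2%.

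Against fibroblasts picked by markers of other kinds, the level of Cilp was 37.8 and 111 CPM in cells with 3 or more of Pi16, Dpp4, Sema3c, Anxa3 and Cd55, the genes of the interstitial progenitor-type fibroblast. It was 33.0 and 68.0 CPM in cells with 2 or more of Gdf10, Fmo2 and Clec11a, and 3.92 and 9.94 CPM in cells with 3 or more of the adipocyte commitment genes Fabp4, Cd36, Lpl and Aoc3. Lobular-like cells were not free of the progenitor-type genes. Pi16 had a UMI in 71.1% and 73.8% of them, at 592 and 489 CPM against 1105 and 792 CPM in the other Pdgfra+ cells. Dpp4 had a UMI in 62.0% and 64.6%. Gdf10 and Fabp4 were rarer, at 8.83% and 9.33% for Gdf10 and 5.26% and 4.35% for Fabp4.

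The 60 bases before the annotated start of the 9 marker genes were read from RefSeq promoters of build GRCm38.p6, where 9 of 9 genes matched, with 11 start sites in all. The letters TATAA and CATAA were searched for on both strands. They are forms of the TATA element at which transcription factor IID binds, cannot overlap at the same position, and were picked after these sequences had been read. On the gene's strand TATAA was present in 5.57% of 32851 promoters and CATAA in 3.62%, and on the opposite strand in 3.34% and 2.89%. Among the marker genes, 4 held a match, each on the gene's strand, and their sequences are shown because they include Thbs4, which was used to choose the cells, and Cilp, which was not. The capitals mark the match.
Thbs4, chr13:92794819-92794878, minus strand: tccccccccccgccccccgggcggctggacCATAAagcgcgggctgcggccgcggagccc
Cilp, chr9:65265120-65265179, plus strand: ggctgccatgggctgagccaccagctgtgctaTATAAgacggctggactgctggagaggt
Myoc, chr1:162639090-162639149, plus strand: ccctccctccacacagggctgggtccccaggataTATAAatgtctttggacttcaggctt
Col8a1, chr16:57754738-57754797, minus strand: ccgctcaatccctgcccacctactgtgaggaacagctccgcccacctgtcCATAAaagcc
The match began at -30 in Thbs4, -28 in Cilp, -26 in Myoc and -10 in Col8a1, counted back from the start. The letters were taken at any position of the window, and the Col8a1 match lay nearer the start than the others. Whether any match serves as a TATA element was not tested. Bmp5, Grm8, Angptl1, Gfra1 and Hmcn2 held neither pattern in this window.

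Not all chosen cells carried the markers that the rule left aside. When the cells of each library were clustered without the genes of the selection, 1 cluster in each was led by Tenm2, Spp1, Fat3 and Vit. It held 85 pubertal cells (14.4%) and 109 adult cells (5.32%). None of the 85 pubertal cells and 6.42% of the adult ones had a Cilp UMI, and 1.18% and 4.59% had an Hmcn2 UMI. They had been chosen through Thbs4 (91.8% and 87.2%), Gfra1 (94.1% and 93.6%), Myoc and Col8a1. Their median depth was 7109 and 7399 UMIs, below that of the other clusters. They are called here by their leading genes and are given no cell type.

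To follow them without clusters, cells with a UMI of 2 or more of Tenm2, Spp1, Cdh19 and Fat3 were set apart, a choice made after the values were seen. This took 89 pubertal cells (15.1%, 12.3 to 18.3) and 113 adult cells (5.52%, 4.57 to 6.596), against 0.0820% and 0.195% of the other Pdgfra+ cells. Tenm2, a teneurin of cell adhesion, stood at 718 and 969 CPM in these cells and at 11.7 and 0.514 CPM in the remaining lobular-like cells. Spp1 encodes osteopontin, Fat3 an atypical cadherin and Cdh19 a cadherin best known from the Schwann cell lineage. The Schwann cell transcription factor gene Sox10 had 0 UMIs in these cells in both libraries. Sox9, a transcription factor gene of cartilage and glial lineages, stood at 145 and 235 CPM against 21.0 and 21.4 CPM. Matn2, which encodes the matrix protein matrilin 2, stood at 725 and 592 CPM against 32.3 and 14.96 CPM. Col15a1, a collagen of basement membrane zones, stood at 3025 and 2857 CPM against 629 and 571 CPM. Smoc2, a SPARC-related matrix protein, was high on both sides of the split, with 4566 and 6040 CPM against 1706 and 2101 CPM.

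Leaving these cells out, the adult share of lobular-like cells was 3.48 times the pubertal one. Cilp was then 36.6 and 18.4 times and Hmcn2 51.4 and 21.7 times its level in the other Pdgfra+ cells. The split itself used Tenm2, on the lobular-like side alone, and so fixes part of its ratio, which was 144 and 35.6 with these cells and 20.4 and 0.465 without them.

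**Figure D3:**
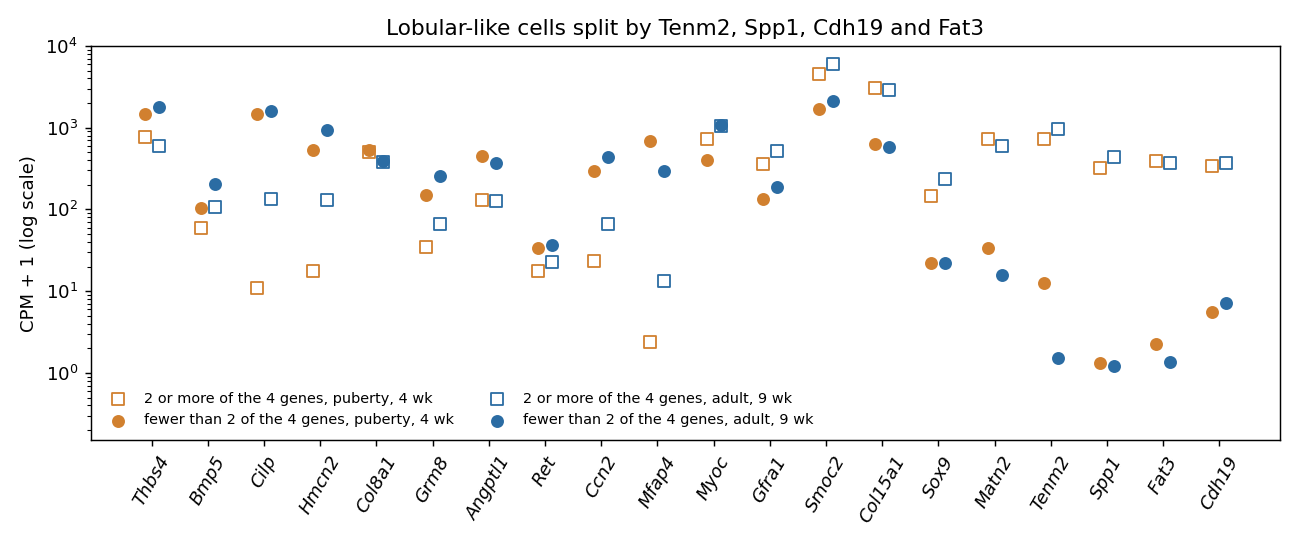
CPM plus 1, on a log axis, of 20 genes in lobular-like cells with a UMI of 2 or more of Tenm2, Spp1, Cdh19 and Fat3 (open squares) and in the remaining lobular-like cells (filled circles), by library. Cilp, Hmcn2, Ccn2 and Mfap4 sit lower in the open squares, Matn2, Sox9 and Col15a1 higher, and Col8a1 and adult Myoc nearly coincide; the 4 genes at the right were used for the split.

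Thbs4 and Bmp5, which give the cells their name, were often detected in different cells. Both had a UMI in 28.5% of pubertal and 42.04% of adult lobular-like cells, and Bmp5 was detected in 44.9% of pubertal cells with Thbs4 and 45.1% of those without it, 61.5% and 64.0% in the adult. Without the Tenm2 and Spp1 cells these shares were 54.6% and 45.9% at puberty and 64.4% and 64.5% in the adult. Thbs4 instead went with Col8a1, which was detected in 79.1% of pubertal cells with Thbs4 and 36.7% of those without it, and in 69.7% and 22.4% in the adult. Since 3 genes were needed for a cell to be chosen, such shares are shaped by the choice. Depth shapes them too: pubertal Bmp5 had 710 UMIs in 589 cells and was detected in 21.4% after thinning. A cell without a UMI may still express the gene. Cilp, which was not used, was found in 94.1% and 96.9% of cells with both Thbs4 and Bmp5 and in 53.4% and 61.8% of cells with neither.

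Some other clusters shared several leading genes between the libraries. In 1 pair of them, with 62 pubertal (10.5%) and 296 adult cells (14.5%), Tnc, C1qtnf3, Fmod and Ccn2 were among the leading genes and Cilp had a UMI in 100% of cells of both. Tenascin C and fibromodulin, encoded by Tnc and Fmod, are matrix proteins known from tendon. Ret was among the 10 leading genes of a pubertal cluster of 121 cells and of an adult cluster of 637, which shared none of their other leading genes, and Grm8 had a UMI in 75.2% and 78.8% of their cells. A further pair with Akr1c18, Aldh1a3, Sema3e and Nav3 among its leading genes (132 and 153 cells) was deep, with median depths of 14920 and 16390 UMIs and a median of 3 markers. Cilp was found in 53.8% and 56.2% of it and Pi16 in 98.5% and 100%. In the cells picked by Pi16, Dpp4, Sema3c, Anxa3 and Cd55, Akr1c18 stood at 512 and 238 CPM. Nav3 stood there at 1679 and 1541 CPM and Sema3e at 367 and 267 CPM. Whether this pair consists of progenitor-type cells that passed the selection was not tested. Small clusters led by Myh11, Acta2 and Tagln held 7 and 9 cells, with Fabp4 in 100% and 88.9%, against 94.4% and 87.1% of mural-like cells. Whether these are doublets with mural cells was not tested, and removing the cells with the highest doublet scores left 523 and 1835 lobular-like cells and a share ratio of 3.18.

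Ret was not used in any selection. Its level was 30.8 CPM in the pubertal and 35.2 CPM in the adult lobular-like cells, against 0.301 and 0.658 CPM in the other Pdgfra+ cells, ratios of 102.3 (77.8 to 136) and 53.5 (44.8 to 64.2). Without the Tenm2 and Spp1 cells, 23.4% of pubertal (19.8 to 27.4) and 26.3% of adult lobular-like cells (24.4 to 28.3) had a Ret UMI, and 0.317% and 0.544% of the other Pdgfra+ cells did. Gfra1 was detected in 72.7% of those pubertal cells with Ret and 46.2% of those without it, and in 80.4% and 53.3% in the adult. Grm8 was detected in 70.9% and 29.5%, and in 78.4% and 49.8%. Receptor and co-receptor transcripts were found together in 17.0% and 21.1% of these cells, and in 0.0109% and 0.153% of the other Pdgfra+ cells. Gfra1 and Grm8 were used to choose the cells, so these shares are shaped by the choice. The ligands were near absent from the same cells. Gdnf had 4 and 7 UMIs in all lobular-like cells, Nrtn 6 and 13, Artn 0 and 8, and Pspn 0 in both libraries, and no ligand passed 1.32 CPM over all cells. Ncam1, an adhesion molecule that also binds GDNF, was 2.88 and 2.76 times higher. Of 3 tested members of the family list, Ret and Ncam1 were thus higher in both libraries, against 2.33% of all genes tested. Gfra2, a related co-receptor gene, was at 3.25 and 0.772 times the level of the other cells, and at 1.53 and 0.5625 times without the Tenm2 and Spp1 cells.

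Genes with at least 10 CPM in 1 of the 4 sums numbered 8940, leaving out those of the selection. The median log2 ratio over these genes was -0.01 at puberty and -0.08 in the adult. Of the 25 further genes that the study lists for its lobular-like cluster, 11 were at least 2-fold higher in both libraries, against 2.33% of all genes tested (208 genes), and 0 were lower. The study may have picked that list on these libraries, so it is no independent evidence of direction. Its members included the ABC transporter genes Abca8a and Abca8b, the elastic fibre gene Ltbp4, Fbln2 and Eng, the TGF-beta co-receptor endoglin.

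Beyond Cilp and Hmcn2, the genes that led by the smaller of both ratios were Tenm2, Meox1, Dlk1, Smoc2, Ccn2, Pde4b, Cxcl14, C1qtnf3, Colgalt2 and Adamts6. Meox1, a homeobox factor gene of the somite, stood at 53.4 and 100.1 CPM against 1.48 and 7.51 CPM, ratios of 36.2 (31.2 to 41.99) and 13.3 (12.5 to 14.2). Smoc2 stood at 1991 and 2258 CPM against 164.5 and 176 CPM, ratios of 12.1 and 12.8. Ccn2, which encodes the matricellular protein also known as connective tissue growth factor, stood at 265 and 423 CPM against 28.9 and 47.5 CPM, ratios of 9.15 and 8.91. Pde4b, a cyclic AMP phosphodiesterase, stood at 231 and 186 CPM against 32.2 and 19.1 CPM. Cxcl14, a chemokine, stood at 288 and 477 CPM against 19.2 and 67.8 CPM. C1qtnf3, a secreted C1q and TNF-related protein, was 11.1 and 6.99 times higher, Colgalt2, which adds galactose to collagen, 6.70 and 11.3 times, and Adamts6, a matrix metalloprotease gene, 5.85 and 6.53 times.

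Of the genes that were lower in both libraries, Akr1c18, the enzyme that inactivates progesterone, stood at 82.0 and 17.9 CPM against 390 and 111 CPM, ratios of 0.210 (0.194 to 0.228) and 0.161 (0.146 to 0.177). Its UMIs lay largely in the deep cluster described above, at 253 and 139 CPM there and 8.21 and 2.55 CPM in the remaining lobular-like cells. Sema3e, Nav3 and Car8 were among the leading genes of the same cluster in both libraries. Rras2 was among them at puberty, and Rorb and Igfbp5 in the adult. The ratios of all these genes average that cluster with the rest. Igfbp5, which binds insulin-like growth factors, stood at 549 and 508 CPM against 1888 and 1868 CPM, ratios of 0.291 and 0.272. Efemp1, a fibulin of elastic tissue, had ratios of 0.323 and 0.234. Sema3e, a guidance ligand gene, had ratios of 0.195 and 0.264, and Nav3, Rorb, Rras2 and Car8 had ratios between 0.245 and 0.328 in both libraries.

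**Figure D4:**
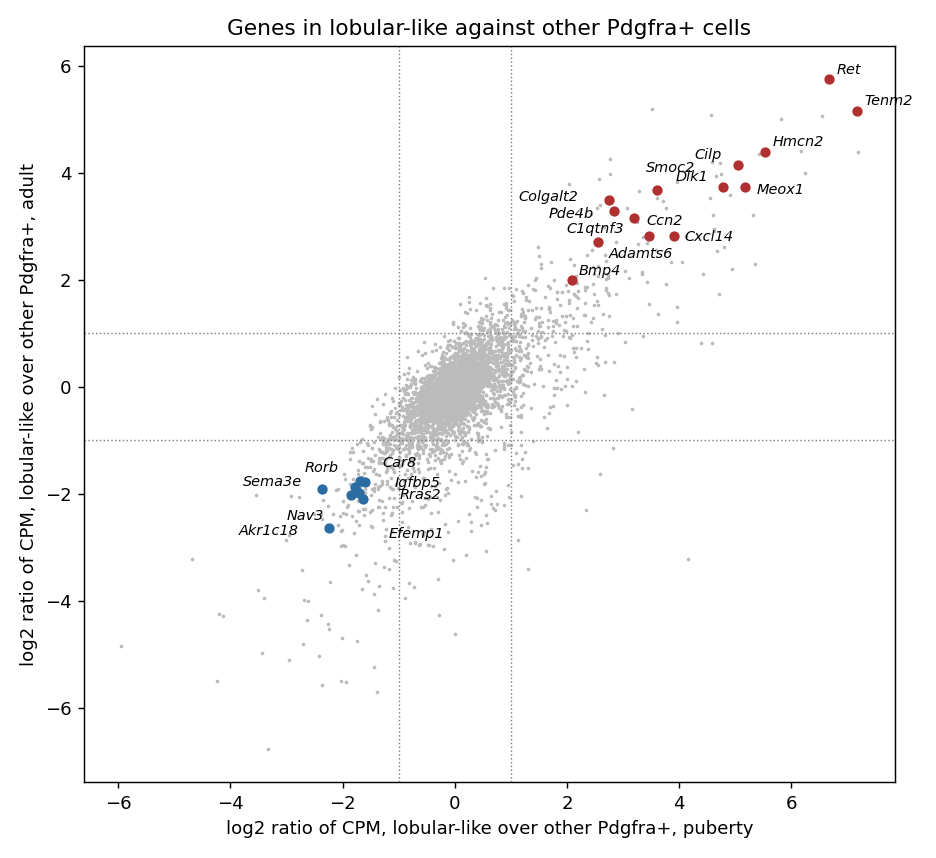
Log2 ratio of CPM in lobular-like over other Pdgfra+ cells at puberty (x axis) and in the adult (y axis), 1 point per gene with at least 10 CPM in a sum compared, genes of the selection left out. Named genes that were higher are red, with Ret and Bmp4 added, named genes that were lower are blue, and dotted lines mark 2-fold; Ret and Tenm2 lie farthest out among the named genes.

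Among growth factors that the stroma supplies to epithelium, none of the 15 measured reached 2-fold higher in both libraries and 8 were lower in both, against 2.51% of all genes tested (224 genes). The list's median log2 ratio was -1.08 in both. Hgf, which encodes hepatocyte growth factor, stood at 12.9 and 25.9 CPM against 44.7 and 98.7 CPM. Fgf10 stood at 24.3 and 30.7 CPM against 53.9 and 113 CPM, Wnt2 at 32.7 and 15.8 CPM against 101.4 and 77.4 CPM, and Vegfd at 27.8 and 33.6 CPM against 70.4 and 77.8 CPM. Igf1 went the other way at puberty, at 659 against 270 CPM, and stood at 318 against 261 CPM in the adult.

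The BMP ligands divided, where 2.33% of all genes tested were higher in both libraries and 2.51% lower. Of 7 measured, Bmp4 was higher in both libraries, at 74.4 and 69.5 CPM against 17.6 and 17.5 CPM, ratios of 4.23 (3.86 to 4.63) and 3.97 (3.75 to 4.202). Bmp4 was low in the Tenm2 and Spp1 cells, at 9.83 and 12.3 CPM. Bmp3, Bmp7 and Gdf10 were lower in both, Gdf10 at 15.8 and 18.8 CPM against 62.9 and 83.1 CPM. Bmp2 was at 1.13 times the level of the other cells at puberty and 2.62 times in the adult. Among 17 BMP receptors, antagonists and targets, 0 were higher in both, and the antagonist gene Chrdl1 was among those that were lower, at 0.339 and 0.355 times. The target genes Id1 and Id3 were near parity at puberty (1.13 and 0.984 times) and at 0.531 and 0.604 times in the adult.

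The TGF-beta list had 4 of 18 members higher in both libraries, namely Cilp, Ccn2, Tgfbi and Eng, and Postn was lower, against 2.33% and 2.51% of all genes tested. Cilp was a marker of these cells, and Tgfbi and Eng are on the study's list for its lobular-like cluster. The count of 4 is thus no independent evidence. Tgfbi, a TGF-beta-induced matrix protein, stood at 373 and 390 CPM against 114 and 77.7 CPM. Postn, which encodes periostin, stood at 1313 and 393 CPM against 2717 and 3776 CPM. Neither the ligand genes Tgfb1, Tgfb2 and Tgfb3 nor the receptor genes Tgfbr1, Tgfbr2 and Tgfbr3 reached 2-fold in both libraries.

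In the matrix lists, 3 of 16 basement membrane genes were higher in both libraries (Hmcn2, Smoc2 and Nid2) and 1 was lower, Hmcn1, against the same 2.33% and 2.51% of all genes. The 2 hemicentins were opposite: Hmcn1 stood at 9.51 and 24.7 CPM in lobular-like cells and at 61.1 and 393 CPM in the others. Nid2, which encodes nidogen 2, stood at 139 and 127 CPM against 20.5 and 39.0 CPM. Of 13 interstitial collagens other than those of the selection, Col12a1 alone was higher in both, 2.47 and 2.71 times, and 0 were lower. Of 10 small leucine-rich proteoglycans, Fmod, Prelp and Podn were higher in both, Prelp at 1.98 and 3.28 times without the Tenm2 and Spp1 cells. Without those cells Fmod stood at 13.8 and 9.09 CPM, with a UMI in 6% and 1.45% of cells. It stood at 99.2 and 55.2 CPM in the Tnc cluster pair and at 2.95 and 1.43 CPM in the remaining lobular-like cells. Of 16 elastic fibre genes, Mfap4 (10.2 and 4.31 times), Ltbp4 and Fbln2 were higher and Efemp1 lower. Of 14 collagen processing genes, 0 reached 2-fold in both. Hmcn2 was a marker of these cells, and Smoc2, Prelp, Ltbp4 and Fbln2 are on the study's list. The counts that hold them are thus no independent evidence.

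Of 8 tendon and cartilage matrix genes, Cilp, Fmod, Prelp and Fibin were higher in both, against 2.33% of all genes, and Kera was lower, at 0 and 1.40 CPM against 2.95 and 15.3 CPM. Fmod lay largely in the Tnc cluster pair, as given above. The tendon gene Tnmd had a UMI in 2.38% and 2.10% of lobular-like cells. Thbs1 was the other thrombospondin that was higher, at 1357 and 784 CPM against 353 and 379 CPM. Of 5 genes of the Abca8 cluster of lipid transporters, Abca8a (6.601 and 3.36 times), Abca8b (7.48 and 5.51 times) and Abca9 (3.23 and 2.64 times) were higher. Cilp was a marker of these cells, and Prelp, Abca8a and Abca8b are on the study's list. The counts that hold them are no independent evidence either. Of 10 progenitor-type markers, Igfbp5 and Sema3c were lower in both and 0 were higher. Of 9 adipocyte commitment genes, Pparg, Fabp4 and Cd36 were lower, and of 5 adipogenesis-regulatory markers Gdf10 and Fmo2 were. Of all genes tested 2.51% were lower in both.

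The glutamate receptor list had Grin2b higher and Gria1 and Gria4 lower of 4 measured. For this list and those below, 2.33% of all genes tested were higher in both libraries and 2.51% lower. Grin2b, an NMDA receptor subunit gene, stood at 17.5 and 5.18 CPM against 0.231 and 0.327 CPM. Without the Tenm2 and Spp1 cells it stood at 2.64 and 0.0857 CPM, 11.4 and 0.262 times the other cells, so its place among the higher genes of the adult rests on those cells. Angpt1 was higher and Angpt2 and Angptl4 were lower of 5 angiopoietin-type genes. Among Wnt antagonists Sfrp1 was higher (4.52 and 2.19 times) and Sfrp2 and Dkk3 were lower of 6. In the contractile list Myl9 was higher and Postn lower of 6. The hedgehog (9 measured), hormone receptor (10) and early response (12) lists had no gene past 2-fold in both libraries. In the complement and chemokine list 1 of 15 was higher, Cxcl14, and 2 were lower.

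Genes with at least 10 CPM in lobular-like cells of either library numbered 8495, here with those of the selection. The median log2 ratio of adult over puberty was 0.07 in lobular-like cells and 0.13 in the other Pdgfra+ cells. Of these genes 88 were at least 2-fold higher in the adult, and 49 of them were also at least 2-fold higher in the other Pdgfra+ cells. 225 genes were at least 2-fold lower, 91 of them in the other cells as well. In the other Pdgfra+ cells 317 of the 8495 genes were at least 2-fold higher and 147 lower. The make-up of those other cells also differed. The set picked by Pi16, Dpp4, Sema3c, Anxa3 and Cd55 held 12998 of 18289 at puberty and 7451 of 18951 in the adult. Ratios in the other cells therefore mix make-up with level. Stage, animals, sort and library cannot be told apart in any of these ratios.

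Of 14 interstitial collagens, 4 were at least 2-fold lower in the adult, against 2.65% of all genes tested. Col1a1 stood at 7066 CPM at puberty and 2400 CPM in the adult, a ratio of 0.340 (0.336 to 0.344), and at 0.506 in the other Pdgfra+ cells. Col3a1 had a ratio of 0.450 and Col1a2 of 0.465, against 0.590 and 0.650 in the others. Col11a1 fell from 29.1 to 2.63 CPM, and most of its UMIs lay in the Tenm2 and Spp1 cells, at 274 and 59.5 CPM there. Sparc, whose product binds collagen, had a ratio of 0.388 and Postn of 0.299, where the ratio of Postn in the other cells was 1.39. Of 6 contractile genes, 4 were lower, among them Acta2 (49.5 to 10.9 CPM). Cells of the Myh11 and Acta2 cluster made up 1.19% of pubertal and 0.440% of adult lobular-like cells. Acta2 stood at 2506 and 1343 CPM in that cluster and at 3.56 and 2.24 CPM in the remaining lobular-like cells. Tagln stood at 2072 and 1190 CPM there and at 2.85 and 1.53 CPM in the remaining cells. Most Acta2 UMIs of both libraries thus lay in a few cells. The cluster's part in the count of 4 was not tested. Of 16 elastic fibre genes Mfap4, Mfap2 and Fbn2 were lower, and of 18 TGF-beta list genes Postn was.

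The named lower genes were H19, Adamts9, Nr4a2, Nrk, Akr1c18, Dlk1, Mirg and Nr4a3. H19, an imprinted noncoding RNA of fetal and growing tissue, stood at 84.2 and 8.68 CPM, a ratio of 0.103 (0.0877 to 0.121), and at 0.434 in the other Pdgfra+ cells. Dlk1 and Mirg come from 1 imprinted region. Dlk1, which encodes an inhibitor of adipocyte differentiation, stood at 91.0 and 20.2 CPM, and without the Tenm2 and Spp1 cells at 73.9 and 16.3 CPM. Mirg stood at 66.4 and 15.1 CPM and had a ratio of 0.227, against 0.223 in the other cells. Adamts9, a versican-cleaving protease gene, stood at 199.7 and 27.1 CPM, a ratio of 0.136 against 0.541 in the others. Nr4a2 and Nr4a3, early-response nuclear receptor genes, had ratios of 0.159 and 0.252 against 0.573 and 0.723. Nrk had a ratio of 0.180 against 0.234, and Akr1c18 of 0.218 against 0.285. The deep cluster that held most Akr1c18 was 22.4% of pubertal and 7.47% of adult lobular-like cells. Akr1c18 was also lower within that cluster, at 253 and 139 CPM, and in the remaining lobular-like cells, at 8.21 and 2.55 CPM. The part of each in the ratio was not tested.

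On the higher side, 2 of 12 early response and heat shock genes passed 2-fold, against 1.04% of all genes tested. These were Hspa1a and Hspa1b, the inducible HSP70 genes of the stress response. Hspa1b stood at 42.8 and 318 CPM, a ratio of 7.42 (6.62 to 8.35), and had a ratio of 8.01 in the other Pdgfra+ cells. Hspa1a had a ratio of 4.71 against 5.28. Of the rest of the leading genes, Inmt, a methyltransferase of indoleamines, stood at 111 and 344.5 CPM, a ratio of 3.10 against 2.94. Inhbb, which encodes the activin beta B subunit, stood at 20.1 and 56.9 CPM, a ratio of 2.83 against 3.31. Cyp4b1, a fatty acid hydroxylase gene, had a ratio of 4.16 against 2.12 and the carboxylesterase gene Ces1d of 2.81 against 1.60. Scg3, a granin, had ratios of 3.30 against 8.86, and St6galnac5, a sialyltransferase gene, of 3.004 against 2.85. Without the Tenm2 and Spp1 cells the ratios of the 8 leading genes lay between 2.66 and 7.44. In the complement and chemokine list C3 (732 and 1730 CPM) and Ccl19 were higher and Cxcl2 and Ccl2 lower. Without those cells, Ccl19 stood at 0.550 and 0.501 times the other Pdgfra+ cells and Ccl2 at 0.699 and 0.728 times. Both thus changed nearly alike in the others. Cxcl2 had a stage ratio of 0.126 and stood at 1.04 and 0.581 times, so it was lower in the others too. C3 stood at 0.547 and 1.17 times.

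Among the BMP ligands, Bmp2 had a ratio of 2.01 (1.77 to 2.28) and Bmp7 of 0.465, the latter from 11.3 and 5.27 CPM. Igf1 and Wnt2 each had a ratio of 0.483 and Hgf of 2.01, which was 3.77 (2.76 to 5.26) without the Tenm2 and Spp1 cells. By the levels given above, Hgf was also higher and Wnt2 also lower in the other adult Pdgfra+ cells, where Igf1 changed little. Ret had a ratio of 1.15 (0.986 to 1.33), Bmp4 of 0.935 (0.847 to 1.03) and Smoc2 of 1.14. In the hormone receptor list Pgr, a gene of the selection, had a ratio of 0.200, from 13.1 and 2.63 CPM, and the oestrogen receptor gene Esr1 of 0.738. The 14 collagen processing and 10 proteoglycan genes had 0 members past 2-fold in either direction.

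**Figure D5:**
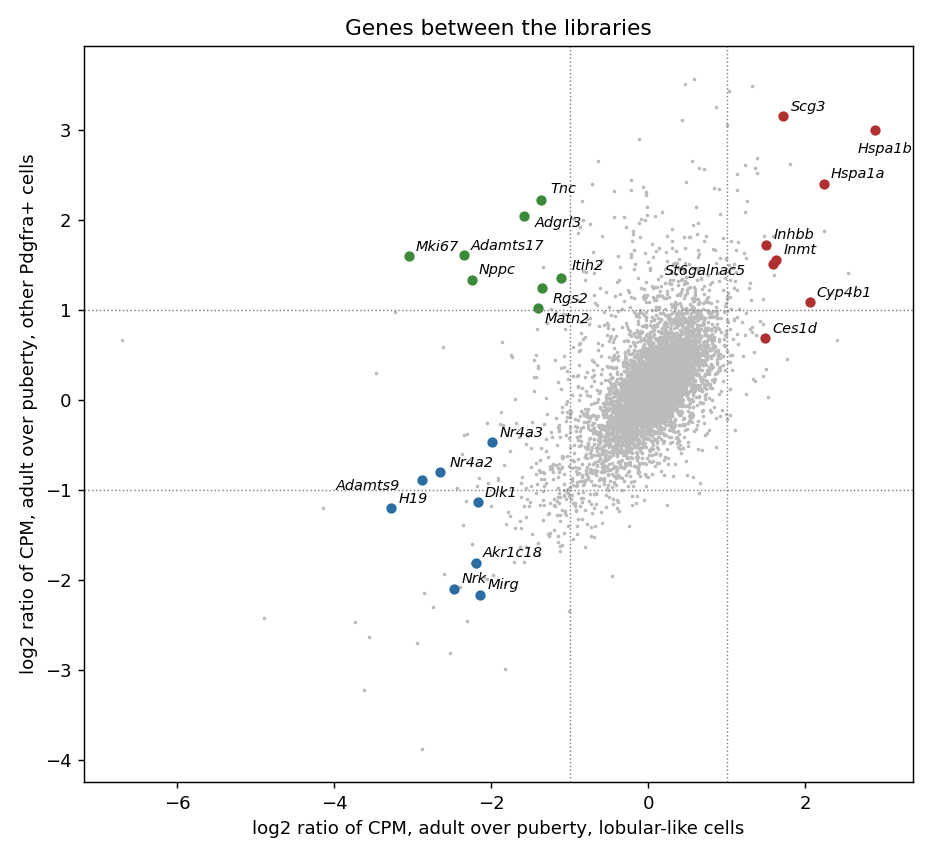
Log2 ratio of CPM, adult over puberty, in lobular-like cells (x axis) and in other Pdgfra+ cells (y axis), 1 point per gene with at least 10 CPM in lobular-like cells of a library, genes of the selection left out. Red and blue points are the named higher and lower genes, green points are the 8 genes at least 2-fold lower in lobular-like cells, also without the Tenm2 and Spp1 cells, and at least 2-fold higher in the others, such as Tnc (0.388 and 4.64 times), and dotted lines mark 2-fold.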

How the data were processed

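Per the labels, libraries were made with a droplet-based 10x Genomics 3′ kit. The authors deposited raw UMI counts per gene and barcode for each library, from Cell Ranger 8.0.1 on build mm10 per the labels' processing notes. The study's methods name other versions and the labels were followed. The gene list held 33696 genes.

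Cells were kept with at least 500 genes and at most 10% mitochondrial UMIs. UMIs were summed over the cells of a group and divided by their total and scaled to 1000000 (CPM). No doublets were removed in the main analysis. In the alternative, the highest Scrublet scores were removed at 0.4% per 1000 barcodes. Ratios carry conditional binomial intervals, shares exact Clopper-Pearson intervals, all at 95%. Depth was equalised by drawing 3000 UMIs per cell. Clusters were made per library (Leiden, resolution 0.5, 1000 variable genes, 30 components). The functions were tested on simulated data. Tools were Python 3.11.15, scanpy 1.11.5, scipy 1.17.1, and edgeR 4.0.16 under R 4.3.3 for TMM factors only.

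Members and lists were chosen with earlier results of these data known. Besides the 9 markers, named genes were those of no selection with at least 50 CPM in lobular-like cells of 1 library, the 12 highest and 8 lowest by the smaller ratio of both libraries and the 8 highest and 8 lowest between stages. Members of each list were named by level or ratio. The alternatives were depth, number and choice of markers, exclusions, quality limits, doublets, TMM scaling, mean of per-cell CPM and a 50 CPM floor.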

Additional observations from a re-analysis of the deposited data

Results flagged for a closer look

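Opposite directions between adult and puberty in lobular-like and in other Pdgfra+ cells were met by 10 genes, each past 2-fold in both. Each stage had 1 library, so the differences were not tested. In every case the gene was lower in adult lobular-like cells and higher in the other adult cells. The make-up of the other Pdgfra+ cells differed between the libraries, as given above, and its part in these ratios was not tested.

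Tnc, which encodes tenascin C, had an adult over puberty ratio of 0.388 in lobular-like cells and 4.64 in the others. Adamts17, a matrix protease gene, had ratios of 0.196 and 3.05. Matn2 had ratios of 0.376 and 2.02, P3h2, which hydroxylates collagen prolines, of 0.422 and 2.02, and Col28a1 of 0.394 and 2.77. Itih2, whose product binds hyaluronan, had ratios of 0.462 and 2.57. The natriuretic peptide gene Nppc had ratios of 0.210 and 2.53, the adhesion receptor gene Adgrl3 of 0.333 and 4.12, and Rgs2, a regulator of G protein signalling, of 0.392 and 2.36. Mki67, the proliferation marker, had ratios of 0.121 and 3.02 from 11.6 and 1.40 CPM in lobular-like cells. Without the cells holding 2 or more of Tenm2, Spp1, Cdh19 and Fat3, 8 of the 10 genes still had ratios of at most 0.5, and Col28a1 and P3h2 had 1.14 and 0.749. Some of these genes were uneven among the lobular-like cells. Tnc stood at 1013 CPM in the pubertal cluster of 62 cells and at 65.8 CPM in the remaining ones. In the adult cluster of 296 cells it stood at 313 CPM, against 22.3 CPM. In the same pubertal cluster Adamts17 stood at 177 CPM, against 27.2 CPM. Nppc stood at 67.4 CPM in the pubertal cluster of 121 cells, against 11.3 CPM. The part of these clusters in the ratios was not tested.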

How the results depend on the processing

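The adult over puberty ratio of the lobular-like share was 3.45 after thinning to 3000 UMIs, 3.73 with at least 4 markers and 3.44 without Gfra1 as a marker. Chosen after seeing the data, at least 5 markers gave 4.35 and leaving out the Tenm2 and Spp1 cells 3.48. It moved by less than its counting interval without Thbs4, without either exclusion, with the mitochondrial maximum at 5%, with at least 1000 genes and with the highest doublet scores removed. Genes lower than in other Pdgfra+ cells numbered 371 after thinning, 349 with at least 4 markers and 393 with at least 5. Genes higher in the adult numbered 311 after thinning and 143 with at least 5 markers. The cause was not tested. Between stages, thinning kept 56 of the 88 higher and 136 of the 225 lower genes. At least 4 markers kept 62 and 158 of them. Against other cells, thinning kept 191 of the 208 higher and 200 of the 224 lower genes. A 50 CPM floor, which tests fewer genes, left 84 higher and 99 lower genes against other cells and 36 higher and 81 lower between stages. Of 76 named genes, 53 were past 2-fold against other cells and 46 of these under every setting run for them, and 35 and 25 between stages. For genes set against other cells these values are the smaller of both libraries, and in the adult alone Tenm2 was at 0.465 and Grin2b at 0.262 times the other cells without the Tenm2 and Spp1 cells. No paired analysis was possible because each stage had 1 library, and for the same reason no replicate could be left out. Intervals cover counting error, not animals, and genes near 10 CPM rest on few UMIs in the 589 pubertal cells.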

Other observations

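In the adult library 1 further cluster of lobular-like cells (212 cells, 10.3%) had the interferon-response genes Ifit1, Ifit3, Isg15 and Rsad2 among its leading genes, with Cilp in 96.7% and Hmcn2 in 98.6% of its cells. In the pubertal library Ifih1 and Ifit3b were among the leading genes of the 121 cells that also had Ret among them. In 182 pubertal cells (30.9%) Lgr5, a receptor for R-spondins, led, at 99.6 CPM against 4.22 CPM in the remaining lobular-like cells, and Cilp was detected in 90.7% of them.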
